A study of Homo sapiens with 6 samples.

Results

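Fatty acid synthesis and desaturation was followed through 10 genes, taken by exact symbol from the 43424 symbols of the deposited tables. They are ACLY, ACACA, ACACB, FASN, ELOVL5, ELOVL6, SCD, FADS1, FADS2 and SREBF1, and all 10 had enough counts to be tested. RNA came from HepG2, an established human liver cancer line labelled wild type. There were 3 cultures given 10 µM tamarixetin for 24 h, against 3 control cultures whose label gives no treatment. Tamarixetin is a methylated relative of the plant flavonol quercetin. The protocol has the compound added in medium with 1% serum, while cells were grown in 10% serum. The labels name no vehicle and do not say which serum level the controls had, so effects of tamarixetin and of serum cannot be told apart. The cultures are all of 1 line, and each library is labelled a biological replicate.

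Fatty acid synthesis turns citrate exported from mitochondria into cytosolic acetyl-CoA, carboxylates it to malonyl-CoA and builds palmitate from these units. Elongases then lengthen the chain and desaturases place double bonds in it, which yields oleate-type fats from palmitate and long polyunsaturated fats from dietary precursors. SREBP-1, the product of SREBF1, is a membrane-bound transcription factor that is released by cleavage in the Golgi and activates most genes of this route in liver.

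Libraries held 11980585 to 16168855 counts, and 18291 to 19003 genes had at least 1 count. The members together took 0.171% to 0.182% of the counts in a library. Libraries were made with a 3′ end kit, in which a transcript gives about 1 fragment whatever its length, so levels are CPM, the count scaled to a common library total after TMM scaling, with no division by length. All 10 hepatocyte markers listed were present and fell with tamarixetin, at a summed 10740 to 11040 CPM in tamarixetin libraries and 18890 to 19460 CPM in control libraries. Fibroblast markers summed to 36.5 to 38.9 CPM with tamarixetin and 39.9 to 45.1 CPM in control, and endothelial markers to 1.01 to 1.90 CPM with tamarixetin and 0.878 to 1.42 CPM in control, with KDR at 0 counts. Of 5 immune markers CD3E was at 0, PTPRC did not pass 0.188 CPM in any library, and lysozyme, LYZ, made up most of their sum (750.1 to 807 CPM with tamarixetin, 895 to 996 CPM in control). CD68 stood at 13.1 to 15.2 CPM with tamarixetin and 11.3 to 13.8 CPM in control, and CD14 at 0.165 to 0.770 CPM with tamarixetin and 1.83 to 2.07 CPM in control. Their part in the results below was not tested. In bulk RNA, fewer cells expressing a gene and less of its RNA per cell cannot be told apart.

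The desaturases of the polyunsaturated route, FADS1 and FADS2, and the regulator SREBF1 were lower in tamarixetin cultures. ACLY and the elongase ELOVL5 were higher. The carboxylases ACACA and ACACB, the synthase FASN, the elongase ELOVL6 and the stearoyl desaturase SCD did not pass the test. By the quasi-likelihood test of edgeR, with Benjamini-Hochberg adjustment over 13198 genes and a threshold of 0.05, 5 of 10 members passed, 2 higher and 3 lower. Over all genes tested 43.7% passed, 22.4% higher and 21.3% lower, so the share of members that passed was near that of the background. The changes were small: log2 fold changes of members ran from -0.38 for FADS2 to 0.21 for ELOVL5, and the largest came to 1.30-fold. Their median was 0.028, or -0.0078 under upper quartile scaling, against 0.0004 over all genes tested. The groups did not overlap in 4 of 10 members, ELOVL5 higher and FADS1, FADS2 and SREBF1 lower, while 50.5% of all genes tested had no overlap (26.0% higher, 24.5% lower). The summed level of the 10 members was 1767 ± 26.9 CPM with tamarixetin and 1783 ± 48.9 CPM in control (SD, n = 3 each).

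**Figure D1:**
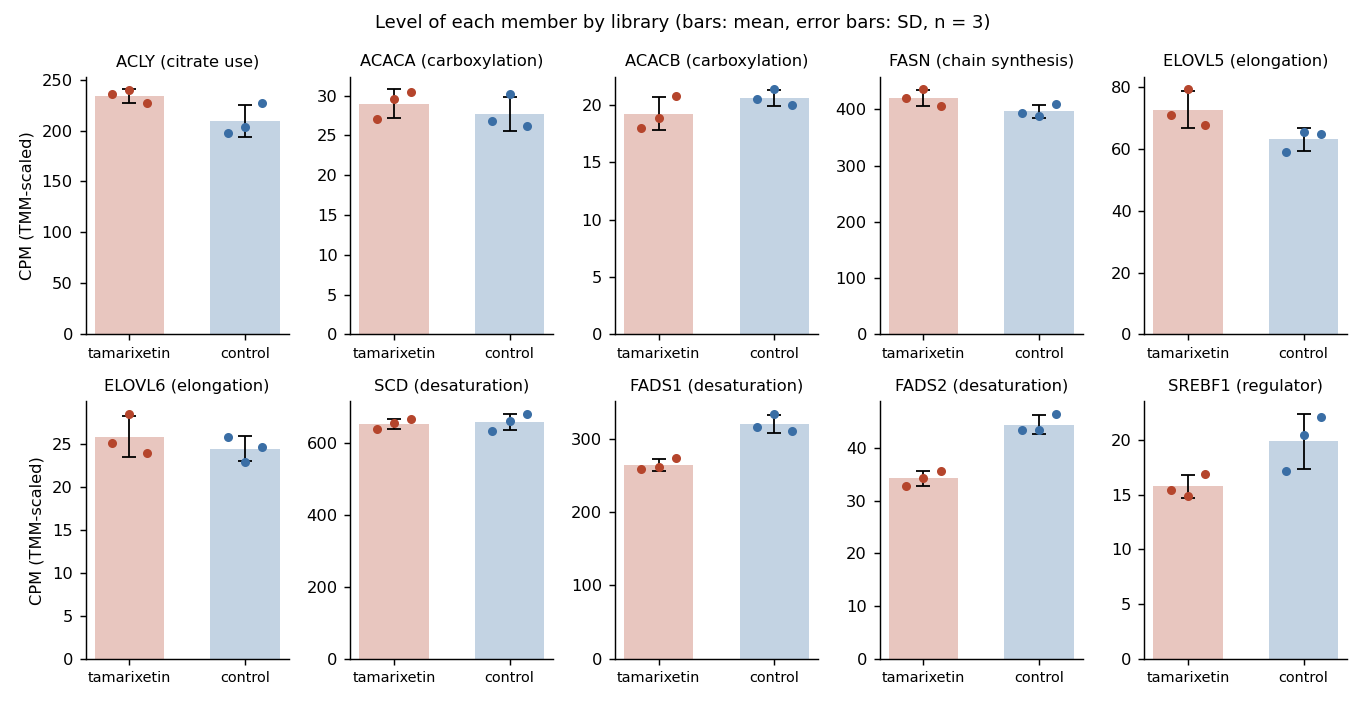
Level of each member in CPM (linear axis from 0) in tamarixetin (left) and control (right) libraries, with 1 point per library, bars at the mean and error bars of 1 SD (n = 3). FADS1, FADS2 and SREBF1 points of tamarixetin libraries all lie under those of control libraries, and ELOVL5 points all lie above.

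**Figure D2:**
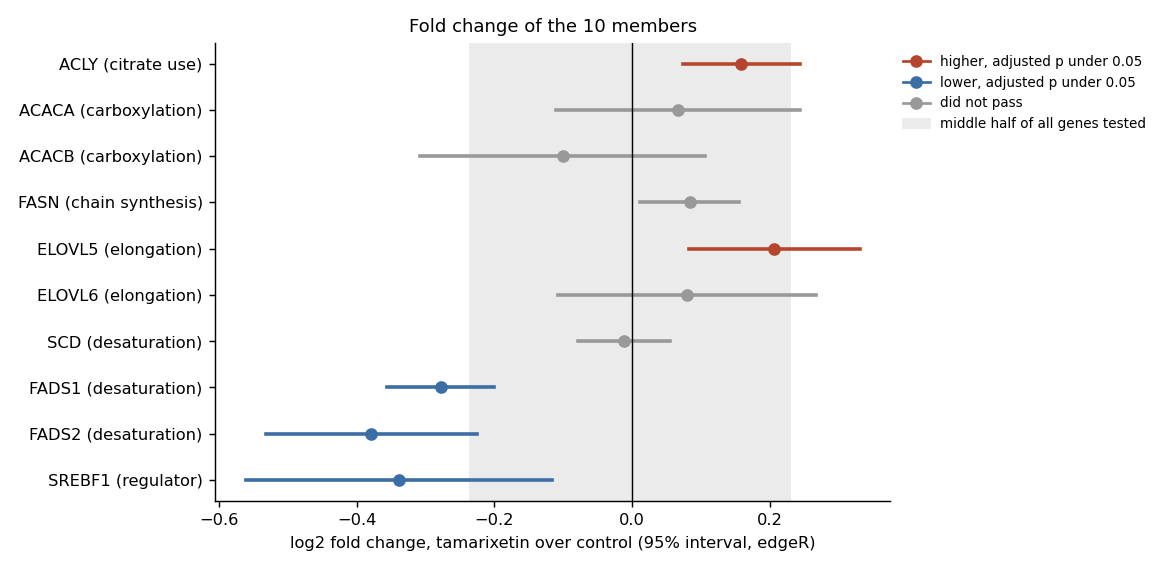
Log2 fold change of each member, tamarixetin over control, as a point with its 95% interval from edgeR, ordered by role from citrate use to the regulator. The grey band spans the middle 50% of all genes tested, and the points of FADS1, FADS2 and SREBF1 lie to the left of it.

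Promoter letters are shown for members that passed the test, to set the falling and rising genes side by side. RefSeq's promoter table (GRCh38.p14) held entries for 9 of the 10 members, all but FASN. The 4 motifs searched on both strands, from 250 bases before to 50 after the start, were as follows. The SREBP element was spelled TCACNCCAC. For the E-box the letters searched were CACGTG. The box bound by NF-Y was searched as CCAAT. The GC box, a letter pattern bound by SP1-type factors, was GGGCGG. The motif letters do not contain one another. Capitals mark every match, and bases annotated as UTR in GENCODE 29 are left out, so that FADS1 and FADS2 are short.
ACLY (chr17:41919023-41919272, minus strand): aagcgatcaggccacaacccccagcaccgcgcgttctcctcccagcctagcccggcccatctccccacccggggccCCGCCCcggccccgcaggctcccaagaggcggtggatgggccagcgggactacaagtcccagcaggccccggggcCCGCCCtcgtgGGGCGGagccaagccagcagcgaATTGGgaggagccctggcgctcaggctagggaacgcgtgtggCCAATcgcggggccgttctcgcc
FADS1 (chr11:61817198-61817253, minus strand): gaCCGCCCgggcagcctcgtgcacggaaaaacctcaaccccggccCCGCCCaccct
FADS2 (chr11:61816149-61816202, plus strand): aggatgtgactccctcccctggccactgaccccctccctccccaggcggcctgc
SREBF1 (chr17:17837003-17837236, minus strand): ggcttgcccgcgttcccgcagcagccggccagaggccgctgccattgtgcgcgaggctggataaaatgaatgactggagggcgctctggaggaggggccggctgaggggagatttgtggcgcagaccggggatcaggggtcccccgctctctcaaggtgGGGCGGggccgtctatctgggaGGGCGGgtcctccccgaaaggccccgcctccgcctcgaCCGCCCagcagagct
In the window first listed for each gene, ACLY had 2 CCAAT boxes, 65 and 23 bases before the start, and 4 GC boxes, 1 of them 13 bases after the start. That start of ACLY lies inside the gene's RefSeq span, which on the minus strand begins at 41930545. SREBF1 had 3 GC boxes, 91, 69 and 31 bases before the start. FADS1 had 2 GC boxes, 248 and 205 bases before, and FADS2 had none of the 4 motifs in its first window. Its other, overlapping RefSeq window held a CCAAT box 6 bases after the start of that window's transcript and a GC box 154 bases before it. ELOVL5, whose window is nearly all annotated UTR and is not printed, had 1 E-box 211 bases before the start and 2 CCAAT boxes, 122 and 68 bases before. The SREBP element letters were in none of the 14 windows of these 9 genes, which says only that these letters are not there. In all 35116 RefSeq windows of that length, 1.13% held the SREBP element, 7.26% the E-box, 34.6% a CCAAT box and 45% a GC box.

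Citrate use and chain building come first in the route. ACLY, which cleaves cytosolic citrate into acetyl-CoA and oxaloacetate (chromosome 17, 41866917 to 41930545), stood at 235, 239 and 227 CPM in tamarixetin libraries, against 197, 203 and 227 CPM in control libraries. Tamarixetin libraries were high except that replicate 3 lay just under control replicate 3, so the groups overlapped. ACLY rose 1.12-fold (log2 fold change 0.16, SE 0.043, adjusted p = 0.00129 in edgeR with Benjamini-Hochberg adjustment).

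ACACA, the cytosolic acetyl-CoA carboxylase that makes malonyl-CoA for synthesis (chromosome 17, 37084992 to 37406836), had 27.0, 29.5 and 30.4 CPM with tamarixetin and 26.8, 30.2 and 26.1 CPM in control. ACACB, the carboxylase at the mitochondrial outer membrane whose malonyl-CoA restrains fat burning (chromosome 12, 109111189 to 109268226), had 18.02, 18.9 and 20.8 CPM with tamarixetin and 20.5, 21.3 and 20 CPM in control. Both overlapped between the groups and did not pass. The 95% interval of the log2 fold change was -0.11 to 0.24 for ACACA and -0.31 to 0.11 for ACACB. At 252 to 421 counts per library these are among the less deeply counted members, and counting alone gives a coefficient of variation of 6.30% at the lowest count. The log2 ratio of ACACB to ACACA within a library was -0.58, -0.64 and -0.55 with tamarixetin and -0.39, -0.50 and -0.38 in control. The ratio was lower in all 3 tamarixetin libraries, by 0.17 on the log2 scale (difference -0.17, two-sided p = 0.1 by an exact permutation test, the smallest that 3 against 3 allows; adjusted 0.2 over 12 ratios).

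FASN, the multi-enzyme synthase that assembles palmitate (chromosome 17, 82078338 to 82098236), was the second most abundant member. It had 419, 435 and 406 CPM with tamarixetin and 393, 388 and 409 CPM in control. Tamarixetin replicate 3 lay under control replicate 3, so the groups overlapped. The log2 fold change of 0.084 (SE 0.036, 95% interval 0.012 to 0.16) missed the threshold in edgeR with an adjusted p of 0.0535 (Benjamini-Hochberg; unadjusted 0.0236). FASN passed without control replicate 3 (log2 fold change 0.10, adjusted p = 0.0257 in edgeR) and without tamarixetin replicate 3 (0.11, adjusted p = 0.0286 in edgeR). It also passed with scaling by library size alone (0.12, adjusted p = 0.00497) and in limma-voom (0.083, adjusted p = 0.0433).

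The elongases differ in substrate: ELOVL5 lengthens polyunsaturated chains, and ELOVL6 takes palmitate-length saturated and monounsaturated chains on to stearate length. ELOVL5 (chromosome 6, 53267404 to 53348950) had 71.0, 79.2 and 67.6 CPM with tamarixetin and 58.9, 65.4 and 64.7 CPM in control. Every tamarixetin library lay above every control library, with replicate 2 the highest. ELOVL5 rose 1.15-fold (log2 fold change 0.21, SE 0.062, adjusted p = 0.00429 in edgeR with Benjamini-Hochberg adjustment). The call was lost without tamarixetin replicate 2 (0.14, adjusted p = 0.105 in edgeR) and without control replicate 1 (0.16, adjusted p = 0.0561 in edgeR).

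ELOVL6 (chromosome 4, 110045846 to 110199202) had 25.1, 28.5 and 24.0 CPM with tamarixetin and 25.8, 22.9 and 24.6 CPM in control, and the groups overlapped. Its log2 fold change of 0.080 had a 95% interval of -0.11 to 0.27 and did not pass. The interval includes the point estimate of ELOVL5. The log2 ratio of ELOVL6 to ELOVL5 differed by -0.12 between tamarixetin and control (two-sided p = 0.4 by an exact permutation test, adjusted 0.48 over 12 ratios), so a difference between the elongases was not shown.

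Desaturation held the largest member by level and the clearest falls. SCD, the enzyme that puts the first double bond into palmitate and stearate (chromosome 10, 100347233 to 100364826), had 638, 654 and 664 CPM with tamarixetin and 633, 660.2 and 678 CPM in control. The libraries of both groups were interleaved. The log2 fold change was -0.012 with a 95% interval of -0.079 to 0.055, so that a change of more than about 0.08 in either direction lies outside the interval. The estimate was above 0 when libraries were scaled by size alone (0.023), without tamarixetin replicate 1 (0.0043) and without control replicate 3 (0.0079). Without SCD the members summed to 1115 ± 22.5 CPM with tamarixetin and 1126 ± 26.3 CPM in control (SD, n = 3 each).

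FADS1, the delta-5 desaturase that makes arachidonate and eicosapentaenoate (chromosome 11, 61799627 to 61817003), had 258, 261 and 273 CPM with tamarixetin and 316, 334 and 311 CPM in control. The lowest control library lay well above the highest tamarixetin library. FADS1 fell to 0.825 of the control level (log2 fold change -0.28, SE 0.039, 95% interval -0.36 to -0.20, adjusted p = 1.73e-09 in edgeR with Benjamini-Hochberg adjustment). Across 6 fits that each left out 1 library the log2 fold change ran from -0.30 to -0.25, and the adjusted p in edgeR did not exceed 8.69e-07.

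FADS2, the delta-6 desaturase at the entry of the polyunsaturated route (chromosome 11, 61816203 to 61867354), had 32.8, 34.2 and 35.7 CPM with tamarixetin and 43.4, 43.3 and 46.5 CPM in control. All 3 tamarixetin libraries lay under all 3 controls. FADS2 fell to 0.769 of the control level (log2 fold change -0.38, SE 0.077, adjusted p = 1.97e-05 in edgeR with Benjamini-Hochberg adjustment). FADS1 and FADS2 are neighbours on opposite strands whose RefSeq spans overlap by 801 bases at their starts, away from the 3′ ends that this kind of library counts. FADS1 was the more abundant of the pair, at 264 ± 8.10 CPM against 34.3 ± 1.44 CPM for FADS2 with tamarixetin and 320.2 ± 12.1 against 44.4 ± 1.82 CPM in control (SD, n = 3 each). The log2 ratio of FADS1 to FADS2 was 2.97, 2.92 and 2.93 with tamarixetin and 2.86, 2.94 and 2.74 in control. The groups of ratios overlapped, and differed by 0.095 (two-sided p = 0.3 by an exact permutation test, adjusted 0.4 over 12 ratios).

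SREBF1 (chromosome 17, 17811334 to 17836986) was the least abundant member, at 15.5, 14.9 and 16.9 CPM with tamarixetin and 17.1, 20.4 and 22.1 CPM in control. The groups did not overlap, but tamarixetin replicate 3 and control replicate 1 were close. SREBF1 fell to 0.791 of the control level (log2 fold change -0.34, SE 0.112, 95% interval -0.56 to -0.12, adjusted p = 0.0093 in edgeR with Benjamini-Hochberg adjustment). The call was lost without control replicate 3 (-0.25, adjusted p = 0.103 in edgeR). Control libraries spread by a coefficient of variation of 12.6% for this gene, the widest of the members, against 6.56% among tamarixetin libraries, and 205 counts in the lowest library give 6.98% from counting alone. Counts per symbol do not separate the SREBP-1a and SREBP-1c transcripts, which differ in their first exon. The 3′ end of SREBF1 overlaps that of RAI1 on the RefSeq map by 120 bases, and the strand setting of the counting is not given in the sources used here. RAI1 itself stood at 34.0 ± 1.84 CPM with tamarixetin and 31.6 ± 0.713 CPM in control (log2 fold change 0.10, adjusted p = 0.336 in edgeR). The microRNA gene MIR33B, which lies within SREBF1, was at 0 counts in every library. Every other microRNA or snoRNA gene that overlaps a member was also at 0, so the value for MIR33B does not show a lack of expression.

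Each member was also set against SREBF1 within the same library, which removes the scaling between libraries. The ratio to SREBF1 was higher in every tamarixetin library than in every control library for 5 of 9 members: ELOVL5, ACLY, FASN, ACACA and SCD. SREBF1 itself was lower without overlap (log2 fold change -0.34), so a gene that did not change also tends to a higher ratio with tamarixetin. SCD (log2 fold change -0.012) and ACACA (0.067) did not pass on their own. The share of all genes tested with such a ratio was not computed, so the count of 5 does not set these members apart. For ELOVL5 the log2 ratio was 2.19, 2.40 and 1.99 with tamarixetin and 1.77, 1.67 and 1.55 in control, a difference of 0.53. For ACLY it was 3.92, 3.99 and 3.73 with tamarixetin and 3.52, 3.31 and 3.36 in control, a difference of 0.49. FASN, ACACA and SCD differed by 0.41, 0.39 and 0.32. Each of these reached p = 0.1 in a two-sided exact permutation test, the smallest possible with 3 against 3, and 0.2 after adjustment over 12 ratios, so none can pass a threshold of 0.05.

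The desaturases of the polyunsaturated route had ratios to SREBF1 that overlapped between the groups. The log2 ratio of FADS1 to SREBF1 was 4.05, 4.11 and 4.003 with tamarixetin and 4.19, 4.02 and 3.81 in control, a difference of 0.048. That of FADS2 was 1.08, 1.19 and 1.07 with tamarixetin and 1.33, 1.08 and 1.07 in control, a difference of -0.047. Both gave p = 0.8 in the two-sided exact permutation test, which does not show that the genes moved alike. Without control replicate 3 the FADS1 difference was -0.051, and without control replicate 1 the FADS2 difference was 0.039. Ratios of ELOVL6 (difference 0.41) and ACACB (0.23) also overlapped, with an exact p of 0.2 for each. All 9 ratios share SREBF1 as divisor and are not independent: its low value in control replicate 1 raises every ratio there.

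**Figure D3:**
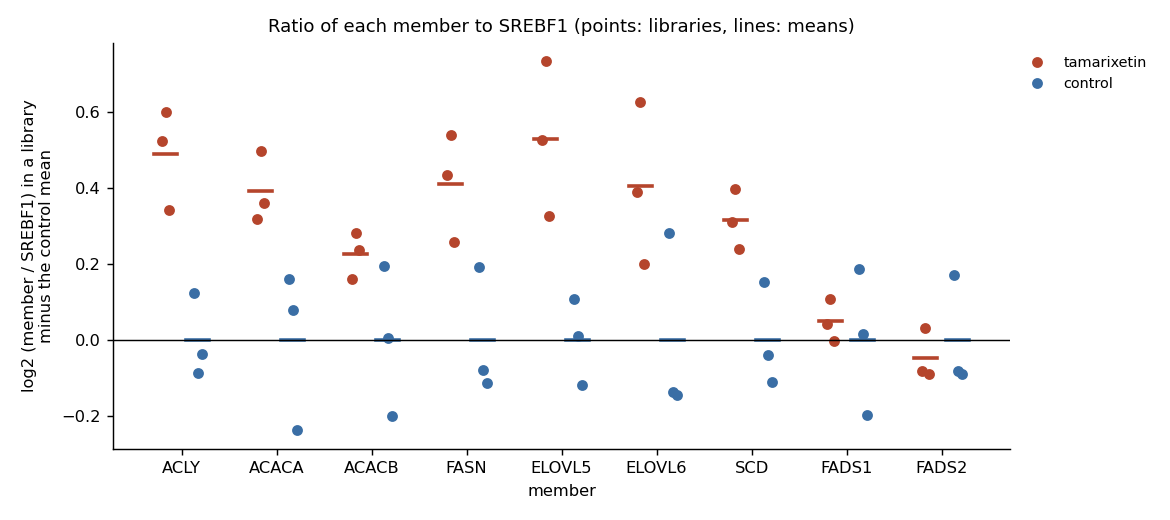
Log2 ratio of each member to SREBF1 in a library, minus the mean of control libraries, for tamarixetin (left of each pair) and control libraries, with 1 point per library and a line at the mean. Tamarixetin points lie above all control points for ACLY, ACACA, FASN, ELOVL5 and SCD, and among them for FADS1 and FADS2.

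Around the members, 8 lists of other genes of the pathway held 109 distinct genes, of which 95 were tested: 18 rose (18.9%) and 32 fell (33.7%), with a median log2 fold change of -0.076. Over all genes tested the shares were 22.4% and 21.3%. Among the 14 genes with too few counts for the test were ME1, the cytosolic malic enzyme, SCD5, the lipogenic regulator THRSP and INSIG1, the retention protein of the SREBP system, which had 3 to 10 counts per library. No gene of these lists that failed the filter passed 17 counts in any library. Whether such counts reflect low expression was not tested.

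Most genes tested of the acetyl-CoA and citrate list were lower, whereas ACLY rose. Besides supply genes the list holds the aconitases and IDH1, which act on citrate or isocitrate. Of 11 tested, 7 fell and 1 rose, the pyruvate dehydrogenase subunit gene DLAT (log2 fold change 0.20; no gene rose without tamarixetin replicate 2 or 3), and the median was -0.29. The mitochondrial pyruvate carrier subunit MPC2 averaged 41.6 ± 3.06 CPM with tamarixetin and 73.1 ± 4.47 CPM in control (SD, n = 3 each). SLC25A1, the carrier that exports citrate to ACLY, averaged 114 ± 3.04 CPM with tamarixetin and 167 ± 7.503 CPM in control, a log2 fold change of -0.56 (SE 0.047). Citrate synthase, CS (-0.38), and the cytosolic isocitrate dehydrogenase IDH1 (-0.26), a source of NADPH, fell as well. ACSS2, which makes acetyl-CoA from acetate, did not pass (-0.071).

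Of 11 tested partners of the carboxylases and of FASN, 3 rose and 2 fell, with a median of 0.12. Subunits of AMP-activated kinase, which switches acetyl-CoA carboxylase off, moved in both directions. The catalytic subunit PRKAA2 averaged 85.6 ± 5.16 CPM with tamarixetin and 61.1 ± 2.29 CPM in control, a rise of 0.49 on the log2 scale, and the scaffold subunits PRKAB2 (-0.46) and PRKAB1 (-0.31) fell. HLCS, which attaches biotin to the carboxylases, rose by 0.36 (adjusted p = 0.0245 in edgeR), a call that was lost in DESeq2 (adjusted p = 0.0684) and, in edgeR, without tamarixetin replicate 1 (adjusted p = 0.146), tamarixetin replicate 3 (0.0606) or control replicate 3 (0.181). The separate mitochondrial route of fatty acid synthesis had 1 higher and 1 lower of 10 tested, the reductase subunit CBR4 (0.29) and the acyl carrier protein NDUFAB1 (-0.11), with a median of -0.067. HSD17B8 (-0.29) and LIPT1 (-0.23) did not pass, although HSD17B8 did without tamarixetin replicate 2 (-0.38, adjusted p = 0.0338 in edgeR) or control replicate 2 (-0.41, adjusted p = 0.0154 in edgeR). HSD17B8 also passed under upper quartile scaling (-0.33, adjusted p = 0.0357 in edgeR).

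Other genes of the elongation cycle fell in 4 of 8 tested and rose in 2, with a median of -0.081. The dehydratases HACD2 (-0.38) and HACD3 (-0.19) and the last reductase of the cycle, TECR (-0.56), fell, and so did ELOVL2 (-0.24), which lengthens the products of ELOVL5. ELOVL2 averaged 118 ± 5.80 CPM with tamarixetin and 139.9 ± 5.50 CPM in control. ELOVL1 (0.34) and HACD1 (0.46) rose; they were named because they went against the rest of the list, after their values were seen.

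Other desaturation genes rose in 3 of 7 tested and fell in 2, with a median of -0.098. FADS3, a further gene of the FADS cluster, rose while FADS1 and FADS2 fell: it averaged 21.8 ± 0.718 CPM with tamarixetin and 12.2 ± 0.869 CPM in control, which is 0.84 on the log2 scale (SE 0.114; edgeR gave an adjusted p of 7.15e-10). CYB5A, the cytochrome b5 that passes electrons to desaturases, rose by 0.32 and the ceramide-forming DEGS1 by 0.35 (not called without tamarixetin replicate 2, adjusted p = 0.0764 in edgeR), while the outer mitochondrial form CYB5B fell by 0.25. Without tamarixetin replicate 2 only 1 gene of this list fell.

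Genes that process or control SREBP were mixed: 4 of 20 rose, 4 fell, with a median of 0.024, or -0.011 under upper quartile scaling. SREBF2, which encodes the SREBP of cholesterol synthesis, averaged 59.0 ± 1.99 CPM with tamarixetin and 63.7 ± 3.52 CPM in control and did not pass (log2 fold change -0.11, adjusted p = 0.149 in edgeR). SCAP, the escort protein of SREBPs (-0.076), and NR1H3, which encodes the SREBF1 activator LXR-alpha (-0.26, adjusted p = 0.0656 in edgeR), did not pass either. TRIB1, a pseudokinase that lowers hepatic lipogenesis in mice, rose by 0.81 (SE 0.065), at 75.4 ± 2.53 CPM with tamarixetin and 43.1 ± 1.34 CPM in control. FBXW7, part of a ubiquitin ligase for nuclear SREBPs, rose by 0.30. MLXIPL, which encodes the glucose-sensing lipogenic factor ChREBP, fell by 0.37 on the log2 scale, and NFYC, a subunit of the CCAAT-binding factor NF-Y, likewise by 0.37.

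Other target genes of SREBP-1 or the LXR receptors fell in 7 of 14 tested, with a median of -0.18. The number that fell was 6 with no filter, with at least 5 CPM in 3 libraries or with the replicate block. It was also 6 without tamarixetin replicate 1. It was 5 in DESeq2, with scaling by library size alone and without tamarixetin replicate 2. None rose in edgeR at the adjusted threshold, 1 did at an unadjusted p under 0.05, and 0 in DESeq2 and 1 in limma-voom at the adjusted threshold. In edgeR 1 also rose without tamarixetin replicate 3 or without control replicate 1. The lipase-related PNPLA3 (-0.94), the cholesterol exporter ABCA1 (-0.77) and GPAM, which starts triglyceride synthesis (-0.44), fell. Genes that activate or bind fatty acids were divided, with 4 of 16 higher, 5 lower and a median of -0.075. FABP1, the liver fatty acid binding protein, averaged 381 ± 2.46 CPM with tamarixetin and 657 ± 14.9 CPM in control; the acyl-CoA synthetases ACSL5 (-0.68) and ACSL4 (-0.33) fell, and the transport protein SLC27A4 rose by 0.78.

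Cholesterol synthesis, the sister route under SREBP-2, gives a scale for these values. Of 20 genes tested 18 fell and none rose in edgeR, DESeq2 or limma-voom or at an unadjusted p under 0.05, with a median of -0.57, against 3 of 10 lower, 2 of 10 higher and a median of 0.028 for fatty acid synthesis and desaturation. The difference between these lists was not tested. HMGCS1 averaged 152 ± 3.22 CPM with tamarixetin and 290.4 ± 13.6 CPM in control, and SQLE and TM7SF2 fell by 0.84 and 1.10 on the log2 scale, each a larger estimate than that of FADS2. The hepatocyte markers, whose 10 genes were all lower with tamarixetin, moved in the same direction as FADS1, FADS2 and SREBF1 and opposite to ACLY and ELOVL5.

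**Figure D4:**
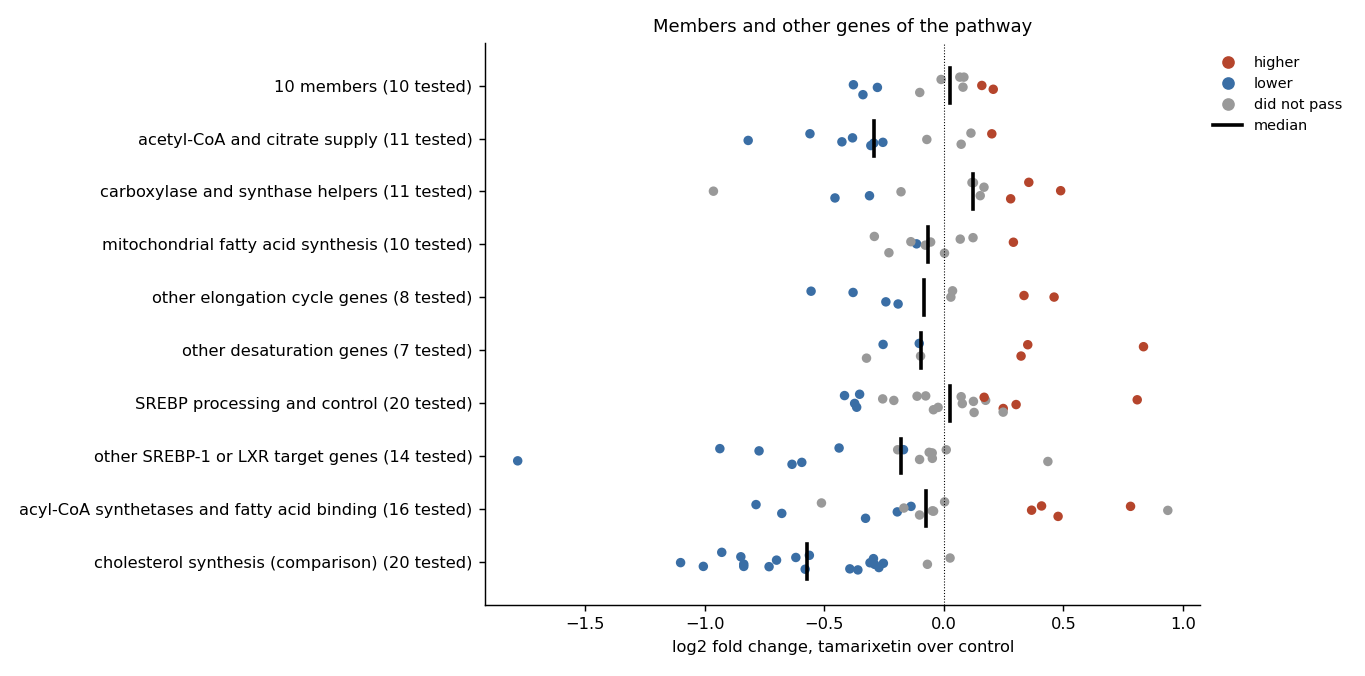
Log2 fold change, tamarixetin over control, of each tested gene of the members and of 9 lists (points, spread vertically at random for display), with black lines at list medians. The members lie between -0.38 and 0.21 around a median of 0.028, and the cholesterol synthesis genes lie mostly under 0 around -0.57.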

How the data were processed

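RNA of 3 tamarixetin and 3 control HepG2 cultures went into QuantSeq 3′ libraries, per the labels' protocols. Each deposited table holds the raw count of every symbol in 1 library. The tools were fastp 0.23.1, STAR 2.7.10b and featureCounts 2.0.6 on GRCh38, per the submitters' processing notes. Annotation release, strand setting and handling of molecular identifiers were not given in the sources used here. Reads without identifiers are not independent molecules.

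Counts were filtered with filterByExpr, scaled with TMM and tested across all genes with edgeR 4.0.16 (quasi-likelihood F test, group as the only term, R 4.3.3), with Benjamini-Hochberg adjustment over 13198 genes. Standard errors are the log2 fold change over the square root of F, and 95% intervals use the fit's t quantiles. Log2 ratios used log2 CPM with a prior count of 2. Libraries of 1 group differed beyond sampling noise (chi-square per gene 2.33 to 3.40), so no library was taken for a copy. Replicate numbers did not pair the libraries. Coordinates and promoters are RefSeq's for GRCh38.p14, in which 42739 of 43424 symbols were found. Of each list, the up to 4 genes with the smallest p are named, besides all members; DLAT, ACSS2, SREBF2, SCAP, NR1H3, ELOVL1, HACD1, RAI1, MIR33B and the untested genes were named after their values were seen. Some genes that the rule names are not reported here. The members and lists were chosen with earlier results of these data known. Alternatives were other scalings, filters, a replicate block, DESeq2 1.42.0, limma-voom (limma 3.58.1), a minimum fold of 1.2 and leaving out each library. No library was excluded.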

Additional observations from a re-analysis of the deposited data

How the results depend on the processing

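Limits are shared by most values: 3 cultures of 1 line per group, a control whose serum and vehicle are not stated, and 205 to 352 counts per library for SREBF1, so changes of its size rest on few counts. Over 15 alternatives FADS1 (-0.31 to -0.24) and FADS2 (-0.41 to -0.34) lost their calls only when a fold of at least 1.2 was required, as did ACLY (0.11 to 0.22). With that minimum fold no member passed, 0 higher and 0 lower of 10 (log2 fold changes 0.16 for ACLY, 0.21 for ELOVL5, -0.28 for FADS1, -0.38 for FADS2 and -0.34 for SREBF1), because the alternative tests against a larger change. Of all 13198 genes tested 1319 were then higher and 1241 lower. Most genes did not pass either, so the count of 0 does not set the members apart. Lists then had, higher and lower of those tested, 0 and 4 of 11 for acetyl-CoA and citrate supply and 1 and 1 of 11 for carboxylase and synthase helpers. The counts were 0 and 0 of 10 for mitochondrial fatty acid synthesis, 0 and 2 of 8 for elongation and 1 and 0 of 7 for desaturation. They were 1 and 1 of 20 for SREBP control and 0 and 5 of 14 for SREBP-1 or LXR targets. Acyl-CoA synthetases and binding had 2 and 2 of 16, and cholesterol synthesis 0 and 12 of 20. Scaling by library size alone gave FASN 0.12 (passing) and SCD 0.023 (sign turned), with 2 higher in acetyl-CoA supply, 0 lower in mitochondrial synthesis, 1 lower in desaturation and 1 higher among SREBP-1 or LXR targets. Upper quartile scaling gave 0 higher in acetyl-CoA supply and 2 lower in mitochondrial synthesis. No filter left 1 lower in desaturation, DESeq2 1 higher among helpers, and limma-voom 0.083 for FASN (passing) and 1 higher among SREBP-1 or LXR targets. Of all calls 51.2% were higher, 57.8% by library size alone and 44.8% under upper quartile scaling. Leaving out 1 library gave FASN 0.060 to 0.11, SCD -0.042 to 0.0079, ELOVL5 0.14 to 0.25 and SREBF1 -0.44 to -0.25. Counts then ran from 1 to 3 for members higher, 0 to 1 for acetyl-CoA supply higher, 1 to 3 for helpers higher, 1 to 2 for mitochondrial synthesis lower, 1 to 2 for desaturation lower and 0 to 1 for SREBP-1 or LXR targets higher. The difference in the log2 ratio of FADS2 to SREBF1 reversed without control replicate 1 (0.039; range without 1 library -0.092 to 0.039). That in the log2 ratio of FADS1 to SREBF1 reversed without control replicate 3 (-0.051; range -0.051 to 0.14). Causes of these changes were not tested, apart from the minimum fold. Same-numbered libraries deviated with correlations of -0.041 to -0.0089, so numbers did not pair them. The replicate block left 2 members higher and 3 lower, FADS1 at -0.28 and SREBF1 at the same side of the threshold. For the 36 list genes named by rule, 517 of 539 refits kept direction and side of the threshold, 19 lost the call, 3 gained it and 0 reversed.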
